A study of Mus musculus with 3 samples.

Results

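The genes described here are 10 germline genes, Asz1, Dazl, Ddx4, Mael, Sycp3, Tdrd1, Stk31, Tex101, Hormad1 and Tuba3a, listed by name and found by gene symbol in the array annotation. All 10 were measured, among 20738 genes in all, through 13 array features: 7 genes had 1 feature and 3 genes had 2. Whole proximal jejunum, a stretch of small intestine beyond the duodenum, of mice labelled Sox4 knockout was compared with wild-type whole proximal jejunum on 3 Agilent arrays with 2 channels, each with its own knockout mouse. The sample titles name vilCre, a Cre recombinase driven by the villin promoter, which is active in the intestinal epithelium and not in the muscle, vessels, nerves or immune cells that whole jejunum also holds. Knockout RNA was labelled with Cy5 and wild-type RNA with Cy3 on all 3 arrays, which the labels place on 1 slide. The age and sex of the mice, and whether the wild-type RNA came from 1 animal or a pool, are not given in the labels. The series addresses what the transcription factor Sox4 does for proliferation, differentiation and DNA methylation patterns of this epithelium. Each value is a log ratio whose base and direction are not stated in the sources used here, read as log2 of knockout divided by wild type, so that 0 means equal signal, and errors are SDs over the 3 arrays.

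Germline genes serve egg and sperm formation, and many of them carry CpG-rich promoters that are methylated soon after implantation and stay silent in somatic tissues. The DNA methyltransferases write this mark, and a Polycomb complex that contains the DNA-binding factors E2F6 and MGA with MAX helps to direct silencing to the same promoters. When methylation is lost in somatic cells, genes of this kind are among those known to become active, and their transcripts are therefore used as a readout of it. Methylation was not measured on these arrays, and a ratio carries no level, so neither the methylation nor the silence of the 10 genes, nor the labelled tissue by its markers, could be checked here. In whole tissue, fewer cells of a type and less RNA per cell cannot be told apart.

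The promoter is the sequence through which these genes are grouped, so 4 promoters are shown, those of the 2 members with the smallest p-values (Asz1 and Tex101) and of the 2 with the most CpG dinucleotides (Ddx4 and Stk31). Each is the 250 bases before the gene start in RefSeq's table for mouse build GRCm38.p6, 5′ to 3′ on the gene's strand, with every CpG in capitals. The Asz1 window is chr6:18109062-18109311 on the minus strand, with 15 CpG. The Tex101 window is chr7:24672051-24672300 on the minus strand, with 14 CpG. The Ddx4 window is chr13:112652311-112652560 on the minus strand, with 31 CpG, and the Stk31 window is chr6:49395289-49395538 on the plus strand, with 21 CpG.
Asz1: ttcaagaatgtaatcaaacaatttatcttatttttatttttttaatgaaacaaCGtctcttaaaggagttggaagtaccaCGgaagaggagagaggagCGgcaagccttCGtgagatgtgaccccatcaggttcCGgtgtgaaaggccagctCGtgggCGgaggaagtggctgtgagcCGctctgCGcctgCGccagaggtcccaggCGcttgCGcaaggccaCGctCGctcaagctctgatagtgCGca
Tex101: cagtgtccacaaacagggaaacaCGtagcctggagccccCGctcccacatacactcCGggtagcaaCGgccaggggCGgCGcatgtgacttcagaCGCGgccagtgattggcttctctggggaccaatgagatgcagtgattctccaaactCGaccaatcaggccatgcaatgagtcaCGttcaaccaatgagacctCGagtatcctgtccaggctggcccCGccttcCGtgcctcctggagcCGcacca
Ddx4: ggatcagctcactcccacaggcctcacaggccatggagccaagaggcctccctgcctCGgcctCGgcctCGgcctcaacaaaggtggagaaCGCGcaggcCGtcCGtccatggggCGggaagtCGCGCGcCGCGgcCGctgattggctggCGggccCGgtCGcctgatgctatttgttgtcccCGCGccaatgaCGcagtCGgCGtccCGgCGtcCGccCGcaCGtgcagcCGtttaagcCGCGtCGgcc
Stk31: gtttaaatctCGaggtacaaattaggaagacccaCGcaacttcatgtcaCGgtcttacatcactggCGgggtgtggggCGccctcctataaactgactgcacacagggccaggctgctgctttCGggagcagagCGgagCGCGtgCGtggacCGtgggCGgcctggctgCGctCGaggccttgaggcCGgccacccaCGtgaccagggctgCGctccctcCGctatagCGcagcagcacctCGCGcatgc

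All 10 members were in the promoter table, and the first window listed for each held between 8 (Tuba3a) and 31 (Ddx4) CpG, with a median of 16.5. The median over the first windows of 27025 genes was 6. The ratio of observed to expected CpG ran from 0.40 in Tuba3a to 1.0 in Ddx4, with a median of 0.69 against 0.38 over all genes. Of the 3 members with more than 1 window, Hormad1 and Stk31 kept 19 or more CpG in the second, while the third Tdrd1 window held 3.

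**Figure D1:**
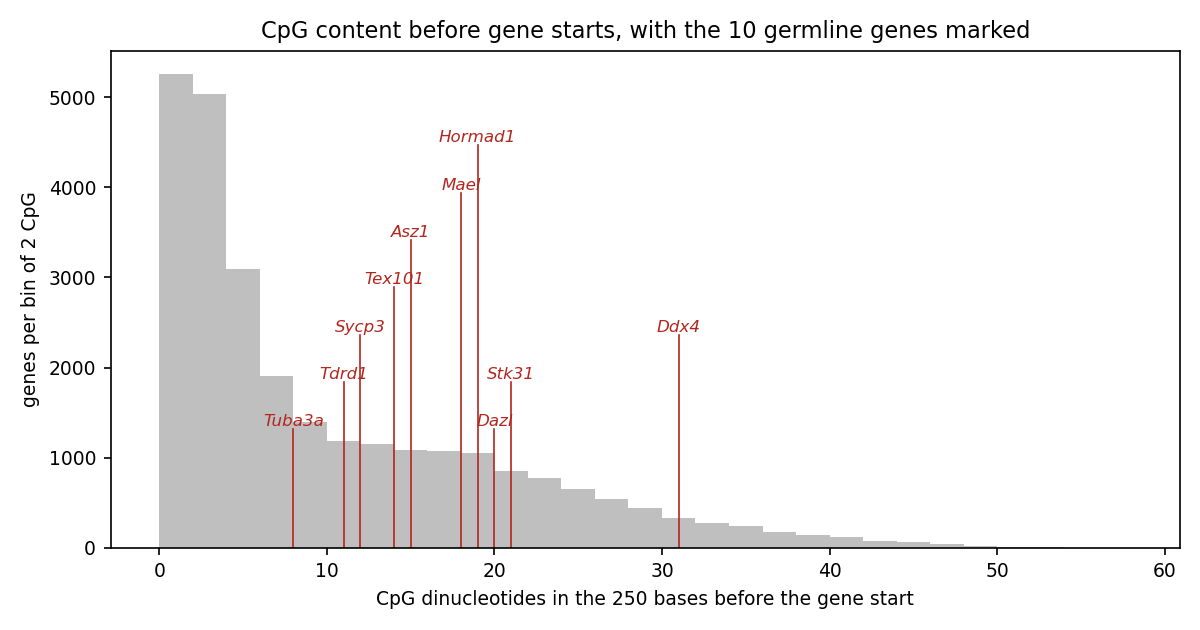
The horizontal axis counts CpG dinucleotides in the 250 bases before the gene start and the vertical axis counts genes per bin of 2 CpG, over 27025 genes, with red lines at the 10 germline genes. The members lie between 8 and 31 CpG, to the right of the all-gene median of 6.

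Motifs were searched on both strands of the same windows, and in the members' windows no matches of different motifs overlapped. The E-box CACGTG, the letters bound by MAX with its partners, was present before 6 of the 10 genes (Ddx4, Hormad1, Mael, Stk31, Sycp3 and Tdrd1), against 6.05% of all genes and 9.21% of the 10540 genes with 8 to 31 CpG. The E2F-type motif GCGGGAA was present before 4 (Ddx4, Hormad1, Sycp3 and Tuba3a), against 3.84% and 7.51%. Of 55 other germline genes in the promoter table, from lists of related roles, 23.6% held CACGTG and 16.4% GCGGGAA, with a median of 12 CpG, so both motifs were also more frequent there than over all genes. AACAAAG, a motif of the SOX and TCF families, was present before 1 member, Ddx4, before 4.99% of all genes, before 2.79% of those with 8 to 31 CpG and before 0 of the 55 other germline genes. In the printed Ddx4 window the match to CACGTG began 29 bases before the gene start, that to GCGGGAA 136 and that to AACAAAG 174 bases before it. In Stk31 the CACGTG match began 55 bases before the start, and the Asz1 and Tex101 windows held none of these letters. Mean log2 ratios were -0.08 to 0.45 in the 6 members with CACGTG (4 above 0) and -0.73 to 0.08 in the 4 without it (1 above 0). The 4 members with GCGGGAA had -0.08 to 0.14 (3 above 0). The 6 without it had -0.73 to 0.45 (2 above 0). Asz1 was the lowest in both groups without the motif, and a link between motif and ratio was not tested. A match is a description of letters, and these ranges overlap.

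Sox4 itself, the targeted gene, had log2 ratios of -0.66, 0.18 and -0.46 on arrays 1, 2 and 3 (mean -0.31 ± 0.44, limma adjusted p = 0.332), and its 3 features disagreed. Feature 53932 was below 0 on every array (-1.21, -0.72 and -0.93), feature 35668 had -0.82, 0.03 and -0.43, and feature 32792 had 0.06, 1.23 and -0.02, so the mean above 0 on array 2 came from feature 32792. The position of the features relative to the deleted part is not used here. Over all genes, 68 of 20738 passed limma's test (0.328%), and 10 passed without array 1, 66 without array 2 and 4 without array 3. Among sex-linked genes, the Y-linked Eif2s3y had -7.28 ± 0.25 and Xist 1.71 ± 0.18, so sex and genotype cannot be told apart in any value below. Adipocyte markers had a median ratio of -2.12 over 7 genes and erythroid markers -1.34 over 5. Their part in the members' ratios was not tested.

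None of the 10 germline genes passed limma's test at an adjusted p of 0.05, where 0.328% of all genes did. Not passing does not show that a gene was unchanged. In simulated data with the gene SDs of these arrays, the test recovered 0% of 50 genes changed by a log2 ratio of 0.5. It recovered 42% of 50 genes changed by 1, 56% of 50 changed by 2 and 92% of 50 changed by 4. The simulation took the SDs of 3 arrays as true and left the remaining genes unchanged, so these shares are a rough guide. At an unadjusted p under 0.05 there was 1 member, Asz1, against 26.3% of all genes. The median of the 10 mean ratios was 0.00, beside -0.03 over all genes, with 5 members above 0 and 5 below. Ratios kept 1 sign on all 3 arrays in 3 members, Asz1 and Tex101 below 0 and Hormad1 above 0. Over all genes 50.6% kept 1 sign, 27.3% below 0 and 23.2% above. By array, the members' median was -0.02, -0.16 and 0.15 on arrays 1, 2 and 3, with 4, 3 and 6 members above 0, and Tdrd1 at exactly 0 on array 1. The members' median SD over arrays, 0.22, equalled that of all genes to this precision.

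**Figure D2:**
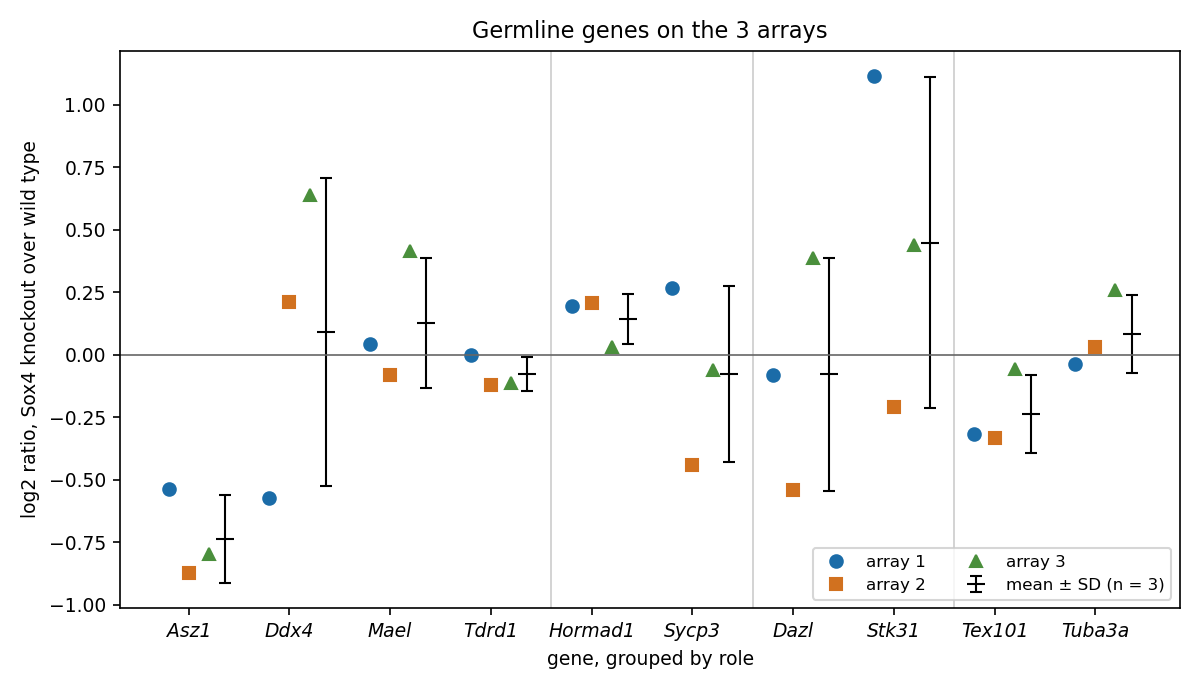
Each symbol is a gene's log2 ratio of Sox4 knockout over wild type (vertical axis) on 1 of the 3 arrays, with genes grouped by role on the horizontal axis and black bars giving the mean ± SD (n = 3). All symbols of Asz1 lie below -0.5, while Ddx4, Stk31, Dazl and Sycp3 have symbols on either side of 0.

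Among the members with roles in the piRNA pathway, which uses small RNAs to silence transposons in germ granules, Asz1 stood lowest. Asz1 encodes an ankyrin-repeat protein of these granules at the mitochondria. Its ratios were -0.54, -0.87 and -0.80 on arrays 1, 2 and 3, all below 0 and within 0.34 of each other. The mean of -0.73 ± 0.18 (95% interval -1.05 to -0.42, n = 3) is 1.66-fold lower in the knockout, with an interval of 1.34-fold to 2.06-fold. limma gave an unadjusted p of 0.00141 and an adjusted p of 0.0663, so Asz1 did not pass, and 2.11% of all genes had a smaller p. Without array 2, the array on which the Sox4 features diverged most, Asz1 had -0.67 (adjusted p = 0.127). It rests on 1 feature.

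Ddx4, the germ cell RNA helicase also called Vasa, had -0.57, 0.21 and 0.64. The arrays lay on either side of 0 and spanned 1.22, and only 5.97% of all genes had a larger SD. Its mean was 0.09 ± 0.62 (95% interval -0.51 to 0.69, limma adjusted p = 0.827), so a change of up to 1.62-fold upward or 1.42-fold downward lies inside the interval. Mael, which encodes Maelstrom, a protein of transposon silencing, had 0.04, -0.08 and 0.42 (mean 0.13 ± 0.26, limma adjusted p = 0.592), with 1 array just below 0.

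Tdrd1, a Tudor domain scaffold that binds PIWI proteins, had 0.00, -0.12 and -0.11, a mean of -0.08 ± 0.07 (limma adjusted p = 0.679). The value on array 1 is exactly 0. Exact zeros were held by 870, 969 and 647 features on arrays 1, 2 and 3, while each of the 10 nearest values of the file's last decimal was held by 44 to 74 features. Whether such a 0 was measured or stands for a missing ratio was not tested. Taken as missing, as an alternative chosen after seeing the data, Tdrd1 averaged -0.12 over arrays 2 and 3, and the count of all genes past the threshold went from 68 to 144.

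The meiotic members encode parts of the chromosome axis, on which homologous chromosomes pair. Hormad1, a checkpoint protein of unsynapsed axes, had 0.20, 0.21 and 0.03 as the mean of its 2 features, all above 0 (mean 0.14 ± 0.10, limma adjusted p = 0.448). Its features disagreed in sign on every array. Feature 546 had -0.06, -0.28 and -0.05, while feature 14686 had 0.45, 0.70 and 0.11. The difference of 0.55 ± 0.41 between them had an exact two-sided sign-flip p of 0.25, the smallest that 3 arrays can give. Over the 4699 genes with 2 features, 39.0% had feature means of unlike sign and the median gap was 0.24. The direction of Hormad1 therefore depends on the feature used.

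Sycp3, a structural protein of the synaptonemal complex, had 0.27, -0.44 and -0.06 as the mean of its 2 features (mean -0.08 ± 0.35, limma adjusted p = 0.788). Array 1 was above 0 and the other arrays below. Feature 29583 had 0.28, -0.66 and 0.39 and feature 34366 had 0.26, -0.21 and -0.51, so the features agreed in sign on arrays 1 and 2 and not on array 3.

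**Figure D3:**
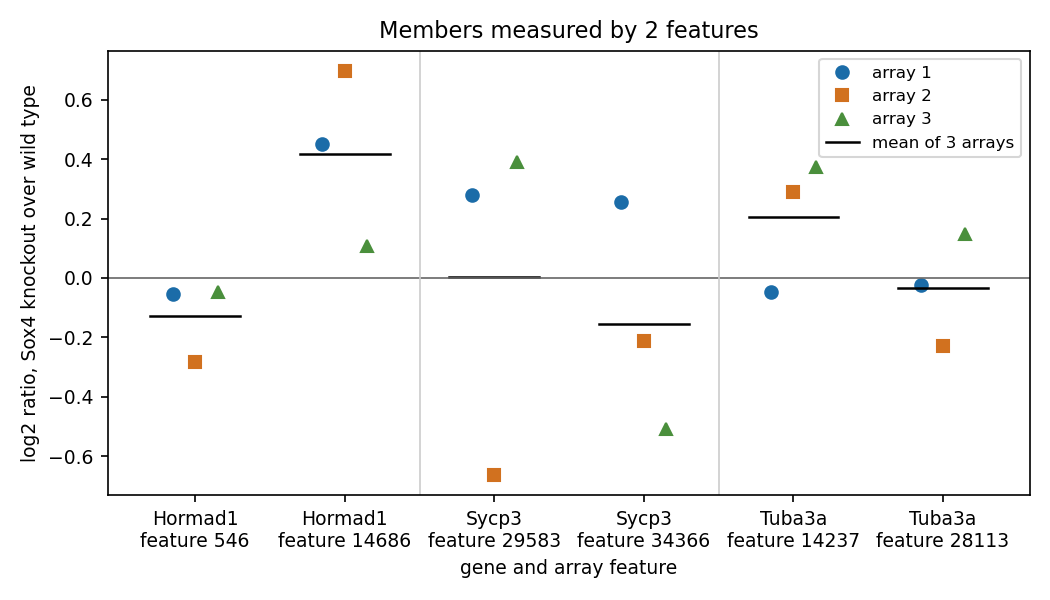
Log2 ratios of Sox4 knockout over wild type (vertical axis) are plotted for the 2 features of Hormad1, Sycp3 and Tuba3a (horizontal axis), with 1 symbol per array and a line at the mean of 3 arrays. The means of the Hormad1 features are -0.13 and 0.42, with no overlap between their symbols.

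Dazl, an RNA-binding protein that promotes translation in germ cells, had -0.08, -0.54 and 0.39. No direction was shared by the arrays, and the mean was -0.08 ± 0.46 (95% interval -0.56 to 0.41, limma adjusted p = 0.821). Stk31, a germ cell protein with a Tudor and a kinase domain, had 1.12, -0.21 and 0.44. Array 1 held the highest ratio of any member on any array, and array 2 was below 0. The mean of 0.45 ± 0.66 (95% interval -0.19 to 1.08, limma adjusted p = 0.310) was the highest of the 10. It was 0.78 without array 2 (limma unadjusted p = 0.0146, adjusted p = 0.152) and 0.12 without array 1 (adjusted p = 0.813).

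Tex101, a glycoprotein anchored on the surface of male germ cells, had -0.32, -0.33 and -0.06, all below 0, with array 3 nearest to it. Its mean was -0.24 ± 0.16 (95% interval -0.54 to 0.07, limma adjusted p = 0.271). Tuba3a, an alpha-tubulin of the testis, had -0.04, 0.03 and 0.26 as the mean of its 2 features (mean 0.08 ± 0.16, limma adjusted p = 0.680). Its features averaged 0.20 ± 0.22 and -0.03 ± 0.19. Tuba3b, a closely related tubulin gene singled out for that, had -0.06, -0.20 and -1.07 (mean -0.44 ± 0.55, limma adjusted p = 0.259). How far features of the Tuba3 pair also bind the other transcript was not tested, so both values are uncertain.

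In order of the mean, the members ran from Asz1 (-0.73) over Tex101 (-0.24), Dazl (-0.08), Tdrd1 (-0.08), Sycp3 (-0.08), Tuba3a (0.08), Ddx4 (0.09), Mael (0.13) and Hormad1 (0.14) to Stk31 (0.45). The 95% intervals of the 9 members other than Asz1 all included 0. Asz1 had a lower ratio than Tex101 on each array, while from Tex101 upward every neighbouring pair had overlapping ratios. Of all genes, 2.73% had a mean below that of Asz1 and 92.3% a mean below that of Stk31.

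**Figure D4:**
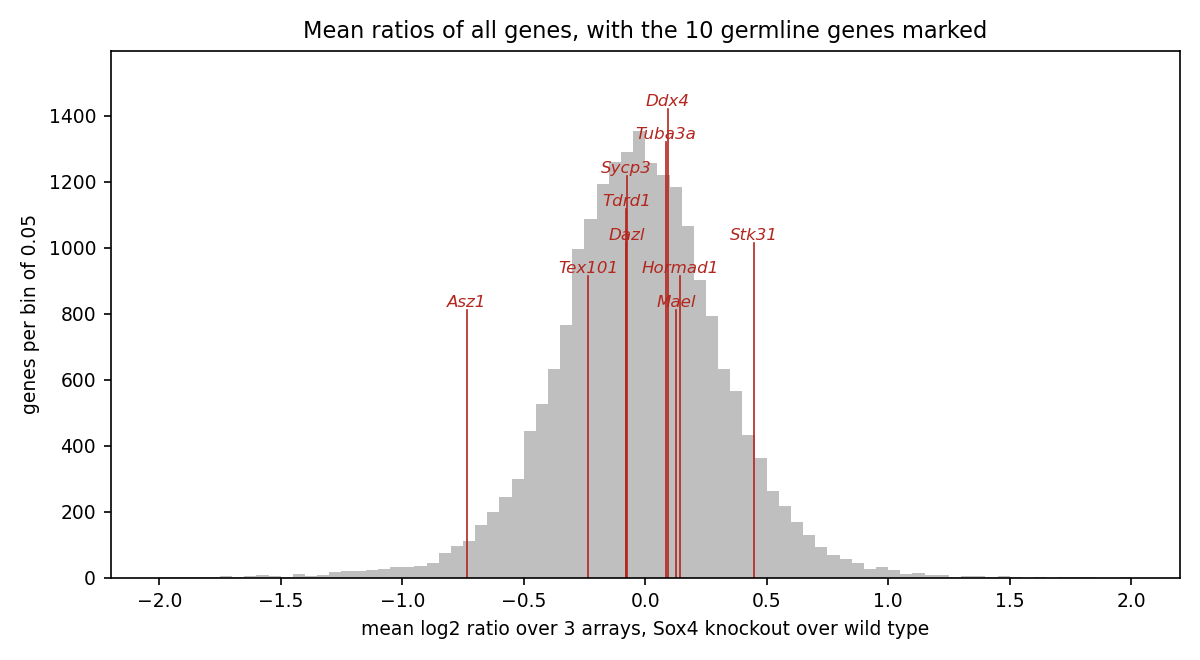
Grey bars count genes (vertical axis) by mean log2 ratio of Sox4 knockout over wild type in bins of 0.05 (horizontal axis, 37 of 20738 genes lie outside it), and red lines mark the 10 germline genes. Asz1 at -0.73 lies below the 5th percentile of all genes (-0.59), and Stk31 at 0.45 lies below the 95th (0.53). The other members lie between -0.24 and 0.14.

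Other germline genes were read from lists of the same roles, 68 genes of which 66 were measured. None passed limma's test at an adjusted p of 0.05, and 20 had an unadjusted p under 0.05 (30.3%, where all genes had 26.3%), 15 lower and 5 higher. Of all genes, 14.3% were lower and 12.0% higher at that rule, which is also the background for the lists of single roles below. The median of the 66 was -0.03, as over all genes. Of 20 further piRNA pathway genes, 5 were lower and 2 higher at that unadjusted p (35.0%). Among them were the Tudor genes Tdrd6 (-0.55 ± 0.23, limma adjusted p = 0.0931) and Tdrd5 (-1.30 ± 0.88, limma adjusted p = 0.0957). Of 24 further meiotic genes, 7 were lower and 1 higher (33.3%). These included Msh5, a crossover protein (0.71 ± 0.08, limma adjusted p = 0.0640), and Stag3, the meiotic cohesin subunit (-1.02 ± 0.58, limma adjusted p = 0.0850).

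Tdrd5 had -2.09, -0.35 and -1.46 and Stag3 had -1.20, -0.37 and -1.49, with array 2 nearest to 0 in each. The 5 mast cell markers also had array 2 nearest to 0, with -4.20 to -3.26 on array 1, -0.70 to 0.31 on array 2 and -3.50 to -2.14 on array 3. Array 3 was nearest to 0 in Tdrd6 (-0.73, -0.62 and -0.29). The same held for the meiotic gene Syce3 (-0.69, -0.84 and -0.11), named after its values were seen. In Asz1, array 1 was nearest to 0 and array 2 lowest. The share of all genes with array 2 nearest to 0 was not computed. The part of mast cells in the ratios of Asz1 and of the other germline genes, Tdrd5 and Stag3 among them, was not tested.

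Among 15 further germ cell regulators, 2 were lower and 1 higher at an unadjusted p under 0.05, with Boll, a relative of Dazl, at -0.37 ± 0.11 (limma adjusted p = 0.131) and Nanos2, a regulator of male germ cells, at 0.65 ± 0.53 (limma adjusted p = 0.140). Among 7 further testis and sperm genes, 1 was lower and 1 higher. These counts are 20% and 28.6% of their lists, where 26.3% of all genes had such a p. Ly6k, a surface protein that binds Tex101 in the testis, had -1.80, -0.87 and -0.74 (mean -1.14 ± 0.57, limma adjusted p = 0.0767), on each array below Tex101. Slc25a31, a testis ADP/ATP carrier, had 0.52 ± 0.38 (limma adjusted p = 0.143).

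**Figure D5:**
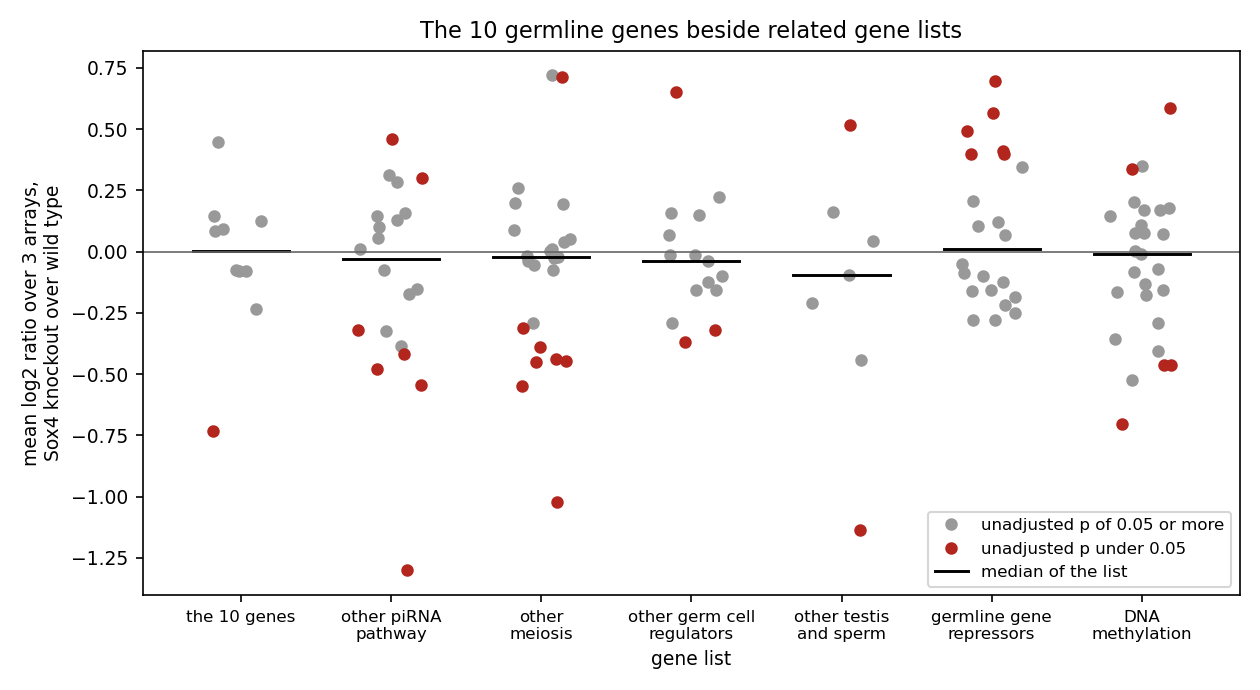
Each point is a gene's mean log2 ratio of Sox4 knockout over wild type over 3 arrays (vertical axis) in a gene list (horizontal axis), red at an unadjusted p under 0.05, with black lines at the list medians. The medians lie between -0.10 and 0.01.

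Genes whose products silence germline genes, among them Polycomb subunits and histone methylation factors, had a median of 0.01 over 22 members, and none passed. At an unadjusted p under 0.05, 6 were higher and 0 lower (27.3%, where 12.0% of all genes were higher and 14.3% lower at that rule). These included Kdm5c, an X-linked histone demethylase (0.70 ± 0.25, limma adjusted p = 0.0764), and Trim28, a corepressor (0.57 ± 0.10, limma adjusted p = 0.0771). The DNA-binding subunits E2f6 (-0.09 ± 0.14, limma adjusted p = 0.667) and Mga (0.21 ± 0.21, limma adjusted p = 0.356), named after their values were seen, had intervals that included 0. Reference genes, read on the same arrays, also had 4 of 8 higher and 0 lower at an unadjusted p under 0.05, with a median of 0.34.

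DNA methylation genes had a median of -0.01 over 27 members. None passed, and 2 were higher and 3 lower at an unadjusted p under 0.05 (18.5%, below the 26.3% of all genes, of which 12.0% were higher and 14.3% lower). Tet1, which oxidises methylcytosine, had -0.70, -0.90 and -0.50 (mean -0.70 ± 0.20, limma adjusted p = 0.0694), below 0 on every array. Zfp57, a zinc finger protein that keeps imprints methylated, had 0.59 ± 0.04 (limma adjusted p = 0.0715). The methyltransferase genes, named after their values were seen, had 0.35 ± 0.50 for Dnmt1, -0.16 ± 0.14 for Dnmt3a and 0.11 ± 0.11 for Dnmt3b (limma adjusted p = 0.320, 0.412 and 0.568). Dnmt1 was above 0 on arrays 1 and 2 (0.44 and 0.80) and below it on array 3 (-0.18), and its cofactor gene Uhrf1 followed the same signs (0.43, 0.47 and -0.39).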

How the data were processed

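Two-channel array ratios of 3 Sox4 knockout mice over wild type were used, 1 group with replicates 1 to 3. The authors deposited 1 log ratio per feature and array, taken here as log2, for 62976 features with array medians of 0.007, 0.003 and 0.011. For the background correction, normalization, filters, log base and direction, nothing is given in the sources used here. The ratios were read as log2 of Cy5 over Cy3 from the dyes in the labels. The natural logarithm would make every fold larger, and the opposite direction would turn every sign. No intensities were used, so dim features stayed in, and precision is limited by the number of arrays.

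Of 31465 features with 1 symbol, RefSeq's gene table named 29036 through the accession, 2075 through the current symbol and 349 through a synonym, 5 kept an old symbol, and 31511 had no name here. Features of a gene were averaged, giving 20738 genes. The test of each mean ratio against 0 used limma 3.58.1 (R 4.3.3, lmFit and eBayes, 2 residual and 3.51 prior degrees of freedom), two-sided, with Benjamini-Hochberg adjustment over all genes and a threshold of 0.05. Intervals are limma's 95% intervals. The spread among wild-type mice does not enter this test, and with no dye swap a dye effect and genotype cannot be told apart. The scripts were tested on simulated data.

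The members and lists were chosen with earlier results of these data known, so no list was tested as a set. The members, Sox4, the 2 genes of smallest p in each related germline, repressor and DNA methylation list and any such gene past the threshold are named, and others are marked. Marker lists are given by ranges or medians, and 5 lymphocyte markers had a median of 0.23 and 7 dividing cell markers 0.59. Alternatives were leaving out each array, array centring and scaling, other rules for several features, platform symbols, a robust spread and, added later, exact zeros as missing. Tables were made in Python 3.11.15 with numpy 2.4.6 and pandas 2.3.3, figures with matplotlib 3.10.9.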

Additional observations from a re-analysis of the deposited data

How the results depend on the processing

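No member passed the threshold under any of the 11 alternatives run. The count of all genes past it was 4 to 66 when 1 array was left out and 144 with exact zeros as missing, and 325 of 62976 features passed when features were fitted one by one, against 68 genes. Members with an unadjusted p under 0.05 numbered 1 to 2 when 1 array was left out and 2 by single features. Those 2 were Asz1 and Hormad1, the latter through feature 14686 (limma unadjusted p = 0.0445, adjusted p = 0.212). Asz1 kept its sign throughout, with adjusted p-values of 0.127 to 0.240 when 1 array was left out and 0.0623 to 0.0951 otherwise. With the lowest-numbered feature in place of the mean, Hormad1 turned to -0.129 and Sycp3 to 0.002. Leaving out 1 array turned the sign of Dazl (-0.31 to 0.15), Ddx4 (-0.18 to 0.43), Mael (-0.019 to 0.23), Sycp3 (-0.25 to 0.10) and Tuba3a (-0.0035 to 0.15), and the cause was not tested. No other of the 77 member values outside the leave-one-out fits changed sign. Each ratio already sets knockout beside wild type on 1 array, and no further pairing of samples was possible because they form 1 group. Signal over background was not used here, so which members lie near it is unknown.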

Other observations

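Several germline genes outside the 10 had ratios that differed widely between arrays, and they were chosen after their values were seen. Piwil2, a PIWI protein that binds piRNAs, had -0.01, -1.48 and 0.51 on arrays 1, 2 and 3. Sycp1, which spans paired meiotic chromosomes, had -0.55, 0.56 and -0.89. Syce1, another meiotic gene, had -0.19, 0.33 and 2.02, with the largest SD of the 66 other germline genes (1.15). Of all genes, 1.04%, 3.23% and 0.728% had a larger SD than Piwil2, Sycp1 and Syce1. None of them passed (limma adjusted p = 0.604 for Piwil2, 0.540 for Sycp1 and 0.318 for Syce1). Piwil1, another PIWI protein, had 0.54, 0.33 and 0.51, above 0 on each array (mean 0.46 ± 0.11, limma adjusted p = 0.0967). It was also chosen after its values were seen, and 80.3% of all genes had a larger SD.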
